A study of Danio rerio with 2 samples.

Results

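Compact strong peaks are narrow stretches of open chromatin with a high peak score, taken from the ATAC-seq peak list of wild-type zebrafish embryos. They were chosen as peaks on chromosomes 1 to 25, chromosome 4 left out, that scored at least 500 and under 10000, were at most 1000 bp wide and had a summit more than 0.5 Mb from either end of the chromosome. By this rule there were 5043 compact strong peaks among the 84715 peaks of the whole list. The samples were 2 replicates of untreated Tübingen wild-type embryos at 4 hpf (hours post fertilization), labelled MBT, with about 300 embryos per tube. Chorion and yolk were removed to obtain nuclei, and the cell types of the embryo were pooled. All samples belong to 1 group, and the authors called 1 list from both replicates together. Values per replicate and the spread between replicates can therefore not be given, the depth is unknown, and no test was made.

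ATAC-seq uses the Tn5 transposase, which cuts DNA where nucleosomes leave it exposed and inserts sequencing adapters there. Short fragments come from stretches with no nucleosome, such as active promoters and enhancers where transcription factors sit on the DNA. In zebrafish, zygotic genome activation (ZGA) begins shortly before this stage, and the maternal factors Pou5f3, Sox19b and Nanog are known to open many sites in the genome around that time. Peaks were called from fragments of 30 to 120 bp, below the length of DNA on a nucleosome. The peaks are given by position in the Zv10 assembly, since no Zv10 sequence or gene annotation was used here. Promoters and enhancers were therefore not told apart.

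The score and the width set the rule, and their values are given as a description. Scores of the compact strong peaks had a median of 754 and a middle 50% between 600 and 1012, and 1717 was the 95th percentile. Of the 5043 peaks, 1310 scored at least 1000 and 140 scored at least 2000. Most of them thus lay within a factor of 2 of the lower limit. The limit cut through a smooth range, with 683 compact strong peaks less than 50 above it and 730 peaks of the same width range and chromosome arms up to 50 below it. At the upper limit there was a wide space, since the highest score was 8658 and the 10 compact peaks left out above it started at 14027.

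In this score range chromosomes 1 to 25 held 12092 peaks. Of these, 1315 were on chromosome 4, 598 within 0.5 Mb of an end of another chromosome, and 5136 on chromosome arms but wider than 1000 bp. The compact ones were thus somewhat under 50% of the strong peaks on the arms. Widths had a median of 720 bp, with 376 peaks in the last 50 bp below the limit and 334 left out in the first 50 bp above it. At the ends of chromosomes, 20 peaks had a summit 0.5 to 0.6 Mb from the end and 31 were left out at 0.4 to 0.5 Mb. Among compact strong peaks, score and width were nearly unrelated, with a Spearman's rho of 0.06 over 5043 peaks of 1 pooled list. The rule limits the range of both, so this value does not hold for peaks of any score, among which wider ones were more often strong, as given below.

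For comparison, 49675 peaks with the same limits on width and position scored under 500, and these are called weak peaks here. Weak peaks were narrower, with a median of 640 bp. They were therefore weighted so that each width, in steps of 10 bp, counted as often as among the compact strong peaks, which brought their median to 720 bp. Values for weak peaks below are weighted in this way, except densities along chromosomes, counts in windows, shares of compact arm peaks and values within a width class. For neighbours and summits on single chromosomes, weak peaks were weighted to the widths of the compact strong peaks of that chromosome. Of all 54728 compact arm peaks, 9.21% were compact strong peaks. The share went from 5.76% at 500 to 590 bp to 16.2% at 900 to 1000 bp.

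The density of compact strong peaks differed between chromosomes, and not in the order of the weak peaks. Over all arms there were 4.07 compact strong peaks per Mb and 40.1 weak peaks per Mb. Chromosome 22 had the highest density of compact strong peaks, 5.94 per Mb (227 peaks on 38.2 Mb), followed by chromosomes 19 and 3 with 4.96 and 4.94 per Mb. The lowest densities were 3.35 per Mb on chromosome 7, and 3.40 per Mb on chromosomes 14 and 18. The median over the 24 chromosomes was 4.05 per Mb, and the highest density was 1.77 times the lowest.

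**Figure D1:**
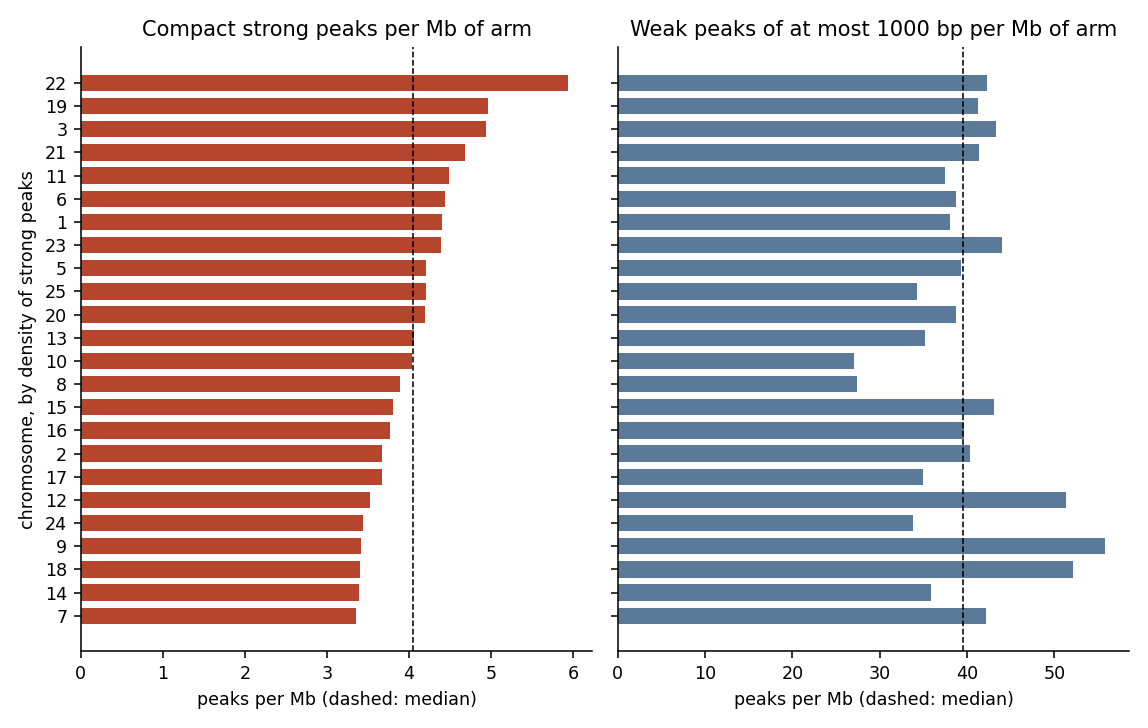
Compact strong peaks (left, red) and weak peaks of at most 1000 bp (right, blue) per Mb of chromosome arm for 24 chromosomes, ordered by the density of compact strong peaks, with the median dashed. Chromosome 22 is highest on the left with 5.94 per Mb, while chromosomes 9, 18 and 12, highest on the right, lie low on the left.

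Weak peaks ran from 27.0 per Mb on chromosome 10 to 55.8 per Mb on chromosome 9. Chromosomes 9, 18 and 12 had the most weak peaks, 55.8, 52.1 and 51.3 per Mb, but only 3.42, 3.40 and 3.53 compact strong peaks per Mb. Chromosomes 10 and 8 had the fewest weak peaks, 27.0 and 27.4 per Mb, and 4.04 and 3.89 compact strong peaks per Mb, near the median. The share of compact arm peaks that were strong was accordingly 5.77% on chromosome 9 (95% Wilson interval 5.03 to 6.62) and 13.0% on chromosome 10 (11.3 to 14.9). Intervals here count peaks only and leave out the error of the reads. They also treat peaks as independent. Neighbouring peaks can count each other, so intervals on spacing and neighbours may be too narrow. Across the 24 chromosomes, the densities of compact strong and weak peaks had a Spearman's rho of -0.0070 and a Pearson's r of -0.086. The chromosomes share 1 pooled list, and lengths were taken up to the last peak, assembly gaps included.

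Median scores of the compact strong peaks were alike between chromosomes, from 690 on chromosome 2 to 797 on chromosome 11. The upper part of the range differed more. At least 1000 was scored by 30 of 173 compact strong peaks on chromosome 14 and by 80 of 227 on chromosome 22. A stricter limit widened the range between chromosomes. Peaks scoring at least 1000 ran from 0.589 per Mb on chromosome 14 to 2.09 per Mb on chromosome 22, and chromosome 19 followed with 1.38 per Mb.

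Within a chromosome, compact strong peaks did go with weak ones. In 1228 windows of 1 Mb, the numbers of compact strong and weak peaks had a Spearman's rho of 0.47 and a Pearson's r of 0.47, and within single chromosomes rho was positive in 24 of 24, from 0.20 to 0.74 with a median of 0.53. Windows with 6 to 27 weak peaks held a mean of 2.31 compact strong peaks, and windows with 51 to 107 weak peaks held 6.16. Compact strong peaks were therefore more frequent where weak peaks were more frequent, while chromosomes rich in weak peaks were not rich in compact strong ones. The windows share 1 pooled list and neighbouring windows are not independent, so these values are descriptions.

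The windows held a median of 3 compact strong peaks and a 95th percentile of 10, and 99 windows, or 8.06%, held none. The variance over windows was 2.35 times the mean. The window with the most was on chromosome 22 from 1500001 to 2500000 and held 22 compact strong and 107 weak peaks. The window before it held another 15. Without these windows chromosome 22 still had 5.24 per Mb. The other windows at the top held 20 on chromosome 1 from 29500001 to 30500000, 18 on chromosome 7 from 63500001 to 64500000, 17 on chromosome 11 from 18500001 to 19500000 and 17 on chromosome 13 from 24500001 to 25500000. The window on chromosome 7 had only 26 weak peaks, fewer than the median of 38 over all windows. It was not poor in peaks, with 99 arm peaks of any score and width, against 61.4 per Mb over that chromosome. A dense window of compact strong peaks was thus not always dense in weak peaks of at most 1000 bp.

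Both kinds of peak varied together with position along the arm. Compact strong peaks went from 5.25 per Mb at 0.5 to 1 Mb from the nearer end to 3.48 per Mb at 5 to 10 Mb and 4.72 per Mb beyond 20 Mb. Weak peaks went from 54.0 to 33.0 and 48.3 per Mb over the same parts. The strong share of compact peaks stayed between 8.86% and 9.56% in all 7 distance classes. It thus varied less with distance from the end than between chromosomes. Chromosomes 22 and 25 are too short to reach the class beyond 20 Mb, so position and chromosome were in part mixed.

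Consecutive compact strong peaks on a chromosome were a median of 116 kb apart, and 197 of 5019 such distances were over 1 Mb. The longest stretch without one, 4.50 Mb, lay on chromosome 15 between summits at 6036416 and 10533056. It was not empty of peaks, since it held 272 others, of which 109 were wider than 1000 bp. Of these wider peaks, 72 (66.1%) scored at least 500, against 27.4% of the 19162 wider arm peaks, and the highest score there was 323805. Strong peaks were thus present in this stretch, but wider than 1000 bp. What gave rise to their scores was not tested. The next stretch, 3.99 Mb on chromosome 7 between 1259016 and 5252046, was of another kind. It held 121 peaks, 30.3 per Mb, and none of them scored above 343. The remaining stretches of the longest 5 measured 3.51 Mb on chromosome 17 (38494786 to 42003301), 3.21 Mb on chromosome 5 (43892866 to 47106746) and 2.72 Mb on chromosome 8 (37002826 to 39726486), with 8 or 9 wide peaks of at least 500 in each.

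Compact strong peaks lay nearer to another peak than weak peaks did. The nearest other summit of any score was a median of 2.98 kb away, against 4.08 kb for weak peaks. Another summit lay within 2 kb for 1705 of 5043 compact strong peaks, or 33.8% (95% Wilson interval 32.5 to 35.1), against 25.5% of weak peaks. Within 5 kb the shares were 66.8% and 56.4%. The share within 2 kb was higher for compact strong peaks in 23 of 24 chromosomes, chromosome 8 being the exception with 24.6% against 27.1%.

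**Figure D2:**
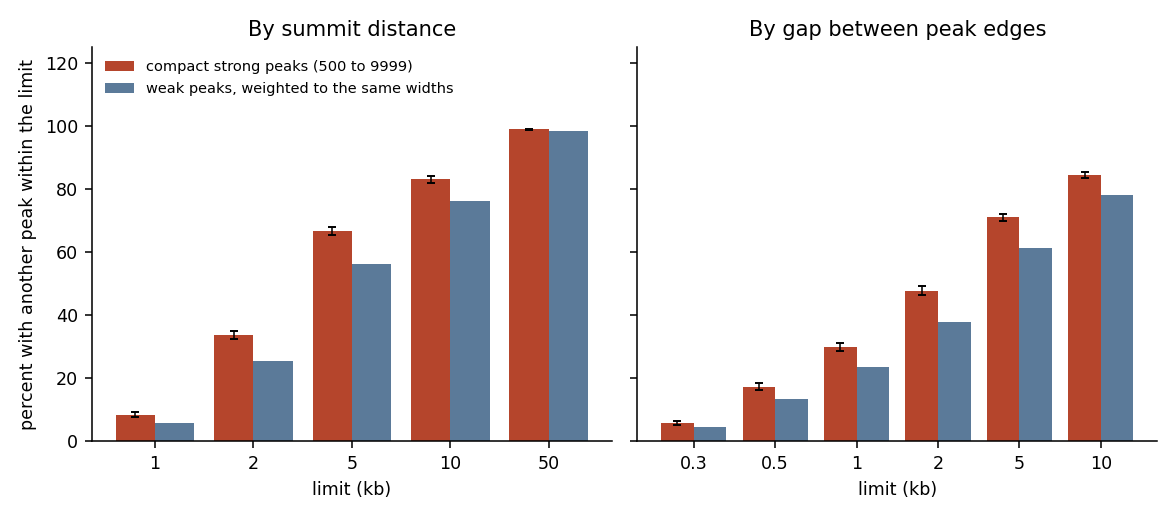
Percent of compact strong peaks (red, with 95% Wilson intervals) and of weak peaks weighted to the same widths (blue) that have another peak of any score within a limit in kb, by distance between summits (left) and by gap between edges (right). The red bar is the higher one at every limit, with 33.8% against 25.5% at 2 kb on the left.

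Measured from edge to edge, the gap to the nearest peak was a median of 2.16 kb for compact strong and 3.25 kb for weak peaks, and 17.3% and 13.6% had a gap of at most 500 bp. Peaks on both sides within 5 kb were found for 25.3% of compact strong and 16.8% of weak peaks. No other peak lay within 10 kb for 16.9% and 23.6%. Only 51 of the 5043 had no other summit within 50 kb. The peaks with the most distant neighbours were 690 bp wide on chromosome 14 from 43929531 to 43930220 (score 590), 198 kb from the next summit, and 550 bp wide on chromosome 8 from 3590181 to 3590730 (score 798), 124 kb away. They were followed by a pair on chromosome 8, from 3973941 to 3974550 and from 4078951 to 4079680, each of which was the other's nearest peak at 105 kb. The fifth lay on chromosome 6 from 47144141 to 47144740, 103 kb from the next summit. Thus 3 of the 5 most remote compact strong peaks lay within 0.5 Mb of each other on chromosome 8.

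The nearest peak of a compact strong peak was itself often strong. It scored at least 500 for 1136 of 5043, or 22.5% (21.4 to 23.7), against 13.1% for weak peaks and 14.0% of all arm peaks of any width. The share was higher for compact strong peaks in 23 of 24 chromosomes, chromosome 24 being the exception with 14.1% against 15.4%. Its width hardly differed, with a median of 730 bp beside compact strong and 720 bp beside weak peaks. In 627 cases, or 12.4%, the nearest peak scored higher than the compact strong peak itself, against 57.5% for weak peaks. This difference follows in part from the score limit and is a description.

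The difference was largest at short distances. When the nearest summit was within 1 kb, it scored at least 500 beside 152 of 428 compact strong peaks, or 35.5% (31.1 to 40.2), and beside 11.1% of weak peaks. Between 1 and 2 kb the shares were 31.2% and 14.5%, and between 2 and 5 kb they were 23.0% and 14.9%. When the nearest summit was 5 to 20 kb away, they were 12.0% and 11.9%. Beyond 20 kb the nearest peak was strong for 44 of 353 compact strong peaks, or 12.5% (9.42 to 16.3), and for 9.68% of weak peaks.

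Among all other peaks around each summit, not only the nearest, the difference also declined with distance but reached further. Peaks scoring at least 500 were 4.73 times as dense within 1 kb of a compact strong peak as within 1 kb of a weak peak, 2.90 times at 1 to 2 kb, 2.14 times at 2 to 5 kb, 1.76 times at 5 to 10 kb, 1.61 times at 10 to 25 kb, 1.39 times at 25 to 50 kb and 1.12 times at 100 to 200 kb. Peaks scoring under 500 were 1.03 times as dense within 1 kb, at most 1.10 times at 2 to 5 kb, and 0.988 times at 100 to 200 kb. In ratio, the surplus near compact strong peaks was thus larger for strong than for weaker peaks. At 5 to 10 kb the densities were 27.4 against 15.6 per Mb for strong and 86.7 against 79.3 per Mb for weaker peaks, so both kinds added to it in number. Whether peaks less than 1 kb apart were separate sites or parts of 1 wider site was not tested.

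**Figure D3:**
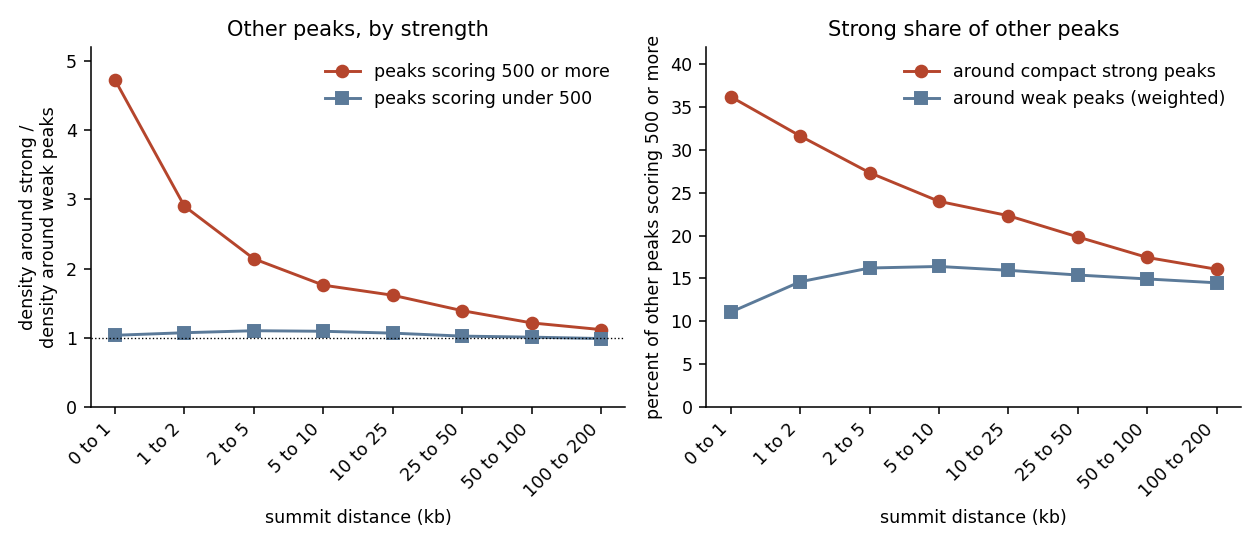
Other peaks around compact strong peaks and around weak peaks, by distance between summits in kb. Left, the ratio of the density around compact strong peaks to that around weak peaks, for other peaks scoring at least 500 (red) and under 500 (blue). Right, the percent of the other peaks that score at least 500, around compact strong (red) and weak peaks (blue). The red ratio falls from 4.73 to 1.12 while the blue stays between 0.988 and 1.10.

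Weaker peaks nearby were slightly more frequent around compact strong peaks. Within 10 kb on each side there was a mean of 1.72 peaks scoring under 500, against 1.57 around weak peaks, and 23.0% and 27.3% had none. Peaks scoring at least 500 had a mean of 0.622 and 0.299 in the same span. Scores of the flanking weaker peaks were higher close to compact strong peaks. Their median was 165 within 1 kb of a compact strong peak and 106 within 1 kb of a weak peak. At 5 to 10 kb these medians were 115 and 107. Beside compact strong peaks, weaker neighbours thus scored higher the closer they lay, while beside weak peaks the medians stayed between 106 and 117.

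Of the 4192 compact strong peaks with another peak within 10 kb on either side, 3026, or 72.2%, scored highest in that span. Within 100 kb the share was 35.9%. These shares follow from the score limit in part and are descriptions.

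Other compact strong peaks were a median of 46.8 kb away from a compact strong peak, and a median of 73.8 kb away from a weak peak. Another one lay within 10 kb for 1103 of 5043, or 21.9%, and within 2 kb for 341. The 25th percentile of the distance to the nearest other compact strong peak was 12.7 kb, against 24.9 kb from a weak peak. Compact strong peaks were 5043 of the 73890 arm peaks of any width. The nearest peak was itself a compact strong peak for 598 of 5043, or 11.9%, against 6.79% for weak peaks. When peaks were followed along the chromosome, 4064 compact strong peaks had no other directly before or after them, and 979 stood in 459 runs with no other peak between them. Most runs were pairs, 411 in number, with 39 of 3, 6 of 4, 2 of 5 and 1 of 6 peaks. How many runs their share of arm peaks alone would give was not worked out.

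The longest run, on chromosome 13 from 50290541 to 50314220, held 6 compact strong peaks in 23.7 kb with scores of 613, 1370, 801, 1948, 1333 and 956 in order along the chromosome. Their summits were 1.30 to 9.39 kb apart. A run of 5 on chromosome 5 from 12785391 to 12792340 was more compact, with 5 peaks in 6.95 kb and scores of 1165, 958, 528, 1060 and 1382. Another run of 5 was on chromosome 13 from 15400581 to 15410040, with scores of 613, 823, 737, 1105 and 674. The shortest run of 4, on chromosome 16 from 27647671 to 27654340, had scores of 683 to 1026. In these 4 runs every score was under 2000, so none held one of the highest-scoring peaks.

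The next run of 4, on chromosome 20 from 17079781 to 17087090, looked different. Its scores alternated, 841, 6663, 1270 and 6888, and all 4 summits lay 15 to 45 bp from the right edge of their peak. The 2 pairs were alike in spacing, with summits 1.17 kb apart in the first and 1.08 kb in the second. Wider peaks with scores of 1882 to 6698 lay on both sides within 15 kb. The 2 high peaks of this run were among the 10 highest-scoring compact strong peaks.

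The highest score, 8658, belonged to a peak of 890 bp on chromosome 12 from 21161321 to 21162210, which stood 4.00 kb from the next summit and had 1 weaker peak within 10 kb. The second, 7800, on chromosome 25 from 26036261 to 26036880, lay 0.780 kb from a peak scoring 10175, above the upper limit. The third, 7694, was found on chromosome 17 from 13147791 to 13148470 and the fourth, 7058, on chromosome 5 from 67633501 to 67634010, 12.4 kb from any other summit. These 4 peaks thus ranged from solitary to closely flanked.

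Besides the pair in the run on chromosome 20, the other high-scoring peaks were on chromosome 20 from 54052771 to 54053300 (6663), on chromosome 21 from 18510311 to 18511050 (6644) and on chromosome 17 from 23889591 to 23890210 (5976) and from 23886221 to 23886900 (5844). The peak on chromosome 21 had 6 other peaks of at least 500 within 10 kb, one of them scoring 46849. The 2 peaks on chromosome 17 were 3.32 kb apart and had nearly the same width, 620 and 680 bp, score and summit offset, 335 and 385 bp from the left edge. Of the 10 highest-scoring peaks, 5 had at least 3 other peaks of 500 or more within 10 kb, but these 5 lay in 3 places and in part counted each other, and 4 of the 10 had none. Among all compact strong peaks 63.7% had none, and among weak peaks 77.7%. The share with at least 3 was not worked out for either kind. The authors kept 1 random placement for reads that fit several places, and whether copies of a sequence contribute to these scores was not tested.

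Summits of compact strong peaks were rarely at the edge of the peak and were not concentrated at its centre. Only 86 of 5043, or 1.71% (1.38 to 2.10), lay within 50 bp of an edge, against 18.2% of weak peaks of the same widths. This held in 24 of 24 chromosomes, with 0 to 3.33% against 15.1% to 21.2%. The groups were split by score, and score, edges and summit are from the same reads, so these shares describe the list. The middle part of the peak, from 33.3% to 66.7% of its width, held 31.9% of summits (30.6 to 33.2), against 30.8% in weak peaks, and summits near the centre were therefore about as frequent in both.

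**Figure D4:**
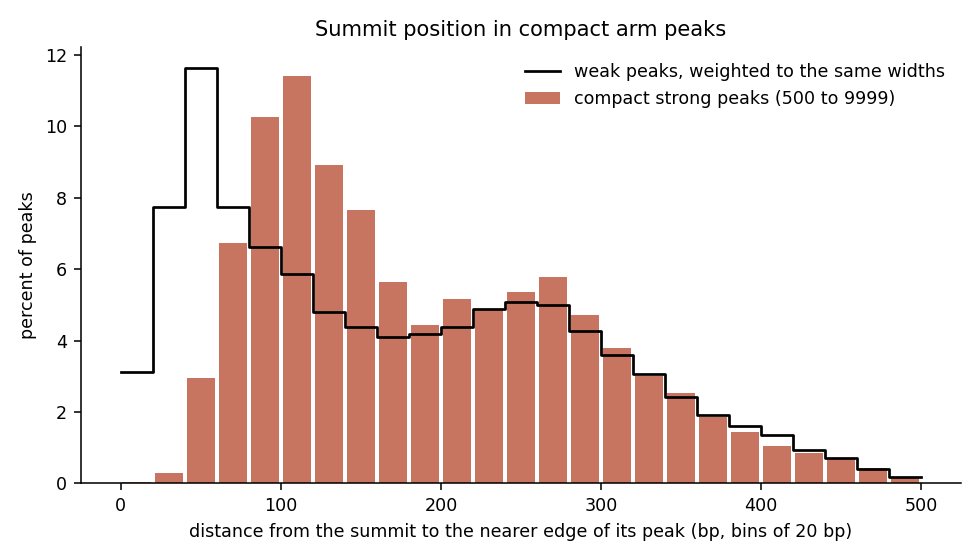
Distance in bp from the summit to the nearer edge of its peak, in bins of 20 bp, as percent of compact strong peaks (red bars) and of weak peaks weighted to the same widths (black line). The bars are highest at 100 to 120 bp, with 11.4%, and the line is highest at 40 to 60 bp, with 11.6%.

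The distance from summit to nearer edge had its most frequent values at 80 to 120 bp in compact strong peaks and at 40 to 60 bp in weak peaks. Distances above 80 and up to 120 bp were found for 21.5% of compact strong and 12.4% of weak peaks. A lower, broad rise at 200 to 300 bp was present in both, with 5.79% and 4.98% at 260 to 280 bp. Medians were 165 and 150 bp and 25th percentiles 105 and 65 bp, while the 75th percentile was 265 bp in both. The kinds thus differed mainly among summits in the nearer part of this range, and little among those farther from an edge. The median was larger in compact strong peaks on 21 of 24 chromosomes.

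The difference in the share of summits within 50 bp of an edge was found at each width. The median distance to the edge was 135 against 105 bp at 500 to 590 bp, but 235 bp in both at 900 to 1000 bp. At 500 to 590 bp, 1.88% of compact strong and 26.4% of weak summits lay within 50 bp of an edge, and at 900 to 1000 bp the shares were 1.78% and 10.4%. Among weak peaks the share fell with width, while among compact strong peaks it stayed between 1.08% and 2.30%. Neither side of the peak was preferred, as 49.4% of summits lay in the left part.

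By score, low-scoring peaks were also narrower, with a median width of 590 bp under a score of 60 and 690 bp from 400 to under 500, and each score class was therefore weighted to the widths of all compact strong peaks, in classes of 100 bp. The share of summits within 50 bp of an edge fell over the whole range of weak peaks, from 31.1% at scores under 60 to 2.99% at scores from 400 to under 500, and was 1.63% from 500 to under 600. Without weighting it was 36.2%, 3.10% and 1.59%. It therefore changed gradually and showed no step at the score limit. It was lowest at scores from 1200 to under 2000, with 0.752%, and higher again, 6.60%, at 2000 and above, where 9 of 140 summits lay that close. The 2 high peaks of the run on chromosome 20 were among those 9. The median distance to the edge hardly changed among weak peaks, from 145 bp in the lowest class to 155 bp from 400 to under 500, and was 155 bp from 500 to under 600 and 205 bp at 2000 and above. Score and summit are from the same reads, so these values describe the list.

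**Figure D5:**
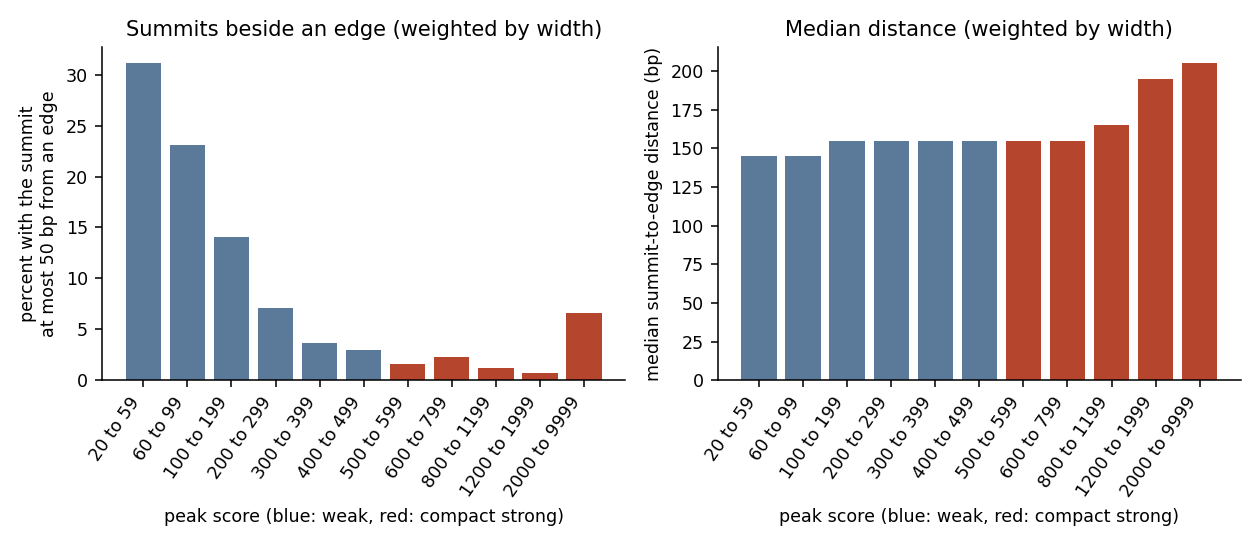
Percent of summits within 50 bp of an edge (left) and median distance from summit to nearer edge in bp (right) by score class, each weighted to the widths of all compact strong peaks, in weak peaks (blue) and compact strong peaks (red). The share falls from 31.1% to 0.752% and is 6.60% in the highest class, while the median rises from 145 to 205 bp, mostly above a score of 1200.

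Where a neighbour lay on 1 side only, summits of compact strong peaks lay a little more often in the part of the peak that faced it. Among peaks flanked on 1 side only, with no other peak within 10 kb on the other side, the summit was in the facing part in 57.0% of 230 compact strong peaks with a gap of at most 500 bp, in 54.8% of 504 at 0.5 to 2 kb and in 55.5% of 1136 at 2 to 10 kb. In weak peaks these shares were 49.8%, 50.2% and 50.3%. The share stood above that of weak peaks in each of the 3 distance classes. The classes with the smaller gaps held few compact strong peaks, and no interval was worked out. A change with distance, or its absence, can therefore not be read from these shares.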

How the data were processed

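Open chromatin at 4 hpf was studied in a single list of peaks from 2 replicates of zebrafish embryos. Reads of 150 bp from both ends were placed on Zv10 by the authors with Novoalign (3.8 according to the processing notes), technical replicates were merged, and both replicates were called together by the Multi-Replica Macs ChIPSeq Wrapper. The deposited score was made by the authors for each peak on an unnamed scale, and 3 further columns hold only 0. The word nodedup in the peak names is read as duplicates kept, and what this does to the scores was not tested.

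The compact strong peaks, the comparisons and the lists of places were chosen with earlier results of these data known. Places named were the 10 highest-scoring peaks, the 5 windows of 1 Mb with the most peaks, the 5 peaks farthest from another, and the 5 longest runs and stretches without one. Neighbours were sought among all peaks of chromosomes 1 to 25, of any width. Starts count from 1. The weighting by width and the neighbour counts were tested on simulated data. Motifs, gene distances and sequences were planned and not run, for lack of a Zv10 genome here. Python 3.11.15, numpy 2.4.6, pandas 2.3.3, scipy 1.17.1 and matplotlib 3.10.9 were used.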

Additional observations from a re-analysis of the deposited data

How the results depend on the processing

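The differences between compact strong and weak peaks in spacing, summit position, weaker peaks nearby and strong nearest peaks kept their direction under the alternatives run. The alternatives for the number of peaks and for summits within 50 bp of an edge, the weighting of score classes among them, were chosen after seeing the data. Raising the lower score limit to 1000 changed most values. The number of peaks was then 1310, the ratio of the highest to the lowest density per chromosome 3.55, the surplus of peaks with another summit within 2 kb 13.2 percentage points in place of 8.27, that of summits in the middle part of the peak 5.27 in place of 1.13, that of peaks with a weaker peak within 10 kb 5.53 in place of 4.30, and that of peaks whose nearest peak scored at least 500 13.8 in place of 9.46. By gap between edges the surplus within 2 kb was 9.84. The surplus of peaks with a weaker peak nearby was 5.80 with a width of at most 800 bp, 5.55 without weighting by width, 5.47 as the median over 24 chromosomes and 1.66 within 25 kb. The difference in summits in the middle part was between 0.716 and 2.34 under the other alternatives. For summits within 50 bp of an edge the difference was -16.54 percentage points, and -16.49 with the limit raised to 1000. It was -19.6 with a width of at most 800 bp, -19.59 against weak peaks under 200 and -18.98 without weighting by width. With both score limits at 400 it was -16.98, with the outer 5 Mb left out -16.25, and as the median over 24 chromosomes -16.74. No paired analysis was possible because the list pools its 2 replicates, and leaving out a replicate was not possible for the same reason. The alternatives for sequence at summits and for genes near peaks were not run for lack of a Zv10 genome here. With the depth unknown, the number of open sites missed cannot be given.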
